A study of Mus musculus with 8 samples.

Results

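The genes described here encode the enzymes that make serine from a glycolytic intermediate (Phgdh, Psat1 and Psph), the enzymes that pass a carbon unit from serine or glycine to folate (Shmt1, Shmt2 and Gldc), an enzyme that oxidises the folate carrying it (Mthfd2), and asparagine synthetase (Asns). They are 8 of the 18194 genes that the platform's gene table pairs with a probe set of the array. The table assigns 22 probe sets to them, and 20 of these belong to 1 gene and were read. The other 2 name Phgdh together with a gene model and were left unread. The 8 genes were picked with the readings of these same arrays known, so their signals are given as a description and no test was made on them. Of the 8 genes, 6 passed the filter on weak signals and 2, Psat1 and Psph, did not. The filter keeps a gene whose strongest probe set has a mean log2 value of 8.24 or more, which is the median over the platform. Mthfd2 lay nearest inside it at 8.72, and Psph nearest outside it at 7.72.

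Whole mouse livers were profiled with 8 Affymetrix arrays, 1 per arm and day, in 2 arms on days 0, 1, 2 and 5 after TCPOBOP, an activator of the nuclear receptor CAR that makes mouse hepatocytes divide. All mice carried a floxed Met gene with an inducible Cre (Metff/ff:ERCre+/+ in the sample labels, METfl/fl: TamCre+/+ in the protocol), and the promoter that drives the Cre is not given in the sources used here. Control mice were littermates given corn oil alone. Mice of the MET KO + EGFRi arm had 5 tamoxifen injections (100 µl at 10 mg/ml) to delete Met, the receptor of hepatocyte growth factor, and then a diet with canertinib, an inhibitor of the EGF receptor, aimed at 80 mg/kg per day. The diet began 1 day before TCPOBOP, which came at least 5 days after the last tamoxifen injection. Both arms received TCPOBOP by gavage at 3 mg/kg. Tamoxifen, loss of Met and canertinib differ between the arms together and cannot be told apart, and whether the day 0 mice had been dosed with TCPOBOP is not given in the labels. The age of the mice and the number of livers in a pool are not given either.

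Each array holds the pooled RNA of a group's livers. No group has a replicate, and the spread between mice is unknown. The values are MAS5 signals, a linear brightness per probe set scaled so that each array has a trimmed mean of 500.002 to 500.003. The median signal of an array ran from 224 to 251, and with so few arrays precision is limited throughout. The ratio of 3' to 5' actin signal ran from 1.57 to 2.36, the highest being MET KO + EGFRi on day 5. The CAR target Cyp2b10 had 444 and 356 on day 0 and 32027 to 48292 in the 6 later arrays. Met had 926 to 1444 in control and 1049 to 2034 under MET KO + EGFRi, and was higher in the latter on 4 of 4 days. These signals do not check the deletion, because the sources used here do not say which exon was removed. The hepatocyte markers Alb, Ttr and Hpx were strong in all arrays, with 36957 for Hpx as the lowest.

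Serine is built from 3-phosphoglycerate in 3 steps. Phgdh oxidises it, Psat1 adds an amino group, and Psph removes the phosphate. Serine hydroxymethyltransferase, in the cytosol (Shmt1) and in mitochondria (Shmt2), then splits serine into glycine and a carbon unit carried by folate, which feeds the synthesis of purines and thymidylate. Adult liver takes up serine and glycine and also breaks them down, and Gldc, the decarboxylase of the mitochondrial glycine cleavage system, is abundant there. Several of these genes, with Asns as the best studied, are known targets of ATF4, a transcription factor raised when amino acids run short.

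Among the genes that passed the filter, the 4 whose arms lay furthest apart on a single day were Phgdh, Gldc, Mthfd2 and Asns, and their promoters are shown for that reason. RefSeq promoters (GRCm38.p6) matched all 8 genes, with 9 starts since Psat1 has 2. Each covers 250 bases before to 50 bases after a start. Capitals mark matches, on either strand, to TGATGNAA (the core of the C/EBP-ATF response element, to which ATF4 binds) or to TGACNNNGC (the core of the antioxidant response element). The E-box CACGTG was also searched. The matches shown do not overlap each other.
Asns, chr6:7693160-7693459, minus strand: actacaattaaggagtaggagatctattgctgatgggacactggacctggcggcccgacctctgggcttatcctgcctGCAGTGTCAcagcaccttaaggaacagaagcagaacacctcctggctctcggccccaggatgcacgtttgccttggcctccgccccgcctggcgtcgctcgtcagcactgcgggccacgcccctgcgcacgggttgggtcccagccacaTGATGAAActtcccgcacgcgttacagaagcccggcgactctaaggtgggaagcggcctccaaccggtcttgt
Mthfd2, chr6:83317555-83317854, minus strand: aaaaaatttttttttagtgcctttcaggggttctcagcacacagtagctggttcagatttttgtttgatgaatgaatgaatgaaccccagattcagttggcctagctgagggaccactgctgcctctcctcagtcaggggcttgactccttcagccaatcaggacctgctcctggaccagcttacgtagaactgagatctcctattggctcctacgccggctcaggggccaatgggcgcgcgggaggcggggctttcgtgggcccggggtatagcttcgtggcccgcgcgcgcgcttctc
Phgdh, chr3:98339920-98340219, minus strand: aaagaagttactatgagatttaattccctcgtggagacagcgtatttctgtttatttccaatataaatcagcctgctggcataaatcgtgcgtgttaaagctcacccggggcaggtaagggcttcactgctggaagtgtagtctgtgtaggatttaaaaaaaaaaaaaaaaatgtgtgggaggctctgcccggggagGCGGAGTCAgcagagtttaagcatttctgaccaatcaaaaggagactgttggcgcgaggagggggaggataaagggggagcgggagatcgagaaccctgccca
Gldc, chr19:30175392-30175691, minus strand: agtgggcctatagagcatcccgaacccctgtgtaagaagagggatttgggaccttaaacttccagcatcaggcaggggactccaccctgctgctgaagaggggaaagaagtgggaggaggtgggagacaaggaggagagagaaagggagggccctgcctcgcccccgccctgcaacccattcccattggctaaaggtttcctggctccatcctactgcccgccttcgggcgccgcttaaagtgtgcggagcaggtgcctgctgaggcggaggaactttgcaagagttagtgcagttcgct
The Asns window held TGATGAAA at positions 228 to 235, counted from 1 at its 5′ end, and it was the only one of the 9 windows with a match to TGATGNAA. Over all 32851 promoter windows of 300 bases, 3.97 percent held this motif. TGACNNNGC was matched in the windows of Phgdh, Psph and Asns, against 12.39 percent of all windows, and CACGTG in none of the 9, against 7.15 percent. These matches describe letters in a window and are not evidence of binding.

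Phgdh, which catalyses the committed step of serine synthesis, had the widest range. Its strongest probe set gave signals of 2641, 3751, 944 and 5218 in control on days 0, 1, 2 and 5, and of 369, 462, 2400.1 and 977 under MET KO + EGFRi. Control was higher on days 0, 1 and 5 and lower on day 2, and the arms overlap. The signal was 7.16-, 8.12- and 5.34-fold higher in control on days 0, 1 and 5, and 2.54-fold higher under MET KO + EGFRi on day 2. Within control the day 2 array was the lowest of the 4, and withunder MET KO + EGFRi it was the highest. The mean log2 difference over the 4 days was -1.63 with a standard deviation of 1.95 over days, and it was -2.60 without either array of day 2.

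The other Phgdh probe sets do not show this pattern. The next strongest had 362, 609.5, 288.5 and 80.6 in control and 378, 349, 308 and 302 under MET KO + EGFRi. The 2 weakest ran from 23 to 207. Of these, 1 was lower under MET KO + EGFRi on 4 of 4 days, by a mean log2 difference of -0.69 and without overlap (116 to 124 in control, 23 to 93.2 under MET KO + EGFRi), and the other was higher on 3 of 4 days. All 4 have names that end in _x_at, by which the manufacturer marks probes that can bind related sequences. With the mean of the 4 probe sets in place of the strongest the log2 difference of Phgdh was -0.50.

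Psat1, the aminotransferase of the pathway, was weak on both of its probe sets. The stronger had 22.3, 63.3, 40.1 and 15.3 in control and 81.7, 113.2, 69.2 and 35.7 under MET KO + EGFRi, higher in the latter on 4 of 4 days. In both arms day 1 was the highest and day 5 the lowest, and the arms overlap. These signals lie near the pseudocount of 71 that was added before taking logarithms, so the mean log2 difference of 0.45 was 1.18 without a pseudocount and 0.19 with the median signal as pseudocount. On the other probe set MET KO + EGFRi on day 1 stood out with 70.3, and the other 7 arrays had 12.2 to 29.9. Psph, the phosphatase, had 208, 149.9, 130.2 and 70.2 in control and 147, 144, 139.6 and 151 under MET KO + EGFRi. In control it was lower on each later day than on day 0, and in the other arm the 4 values lay within a factor of 1.08. Its difference has no stable direction, with 0.08 over 4 days, 0.23 without either array of day 0 and -0.11 without either of day 5.

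**Figure D1:**
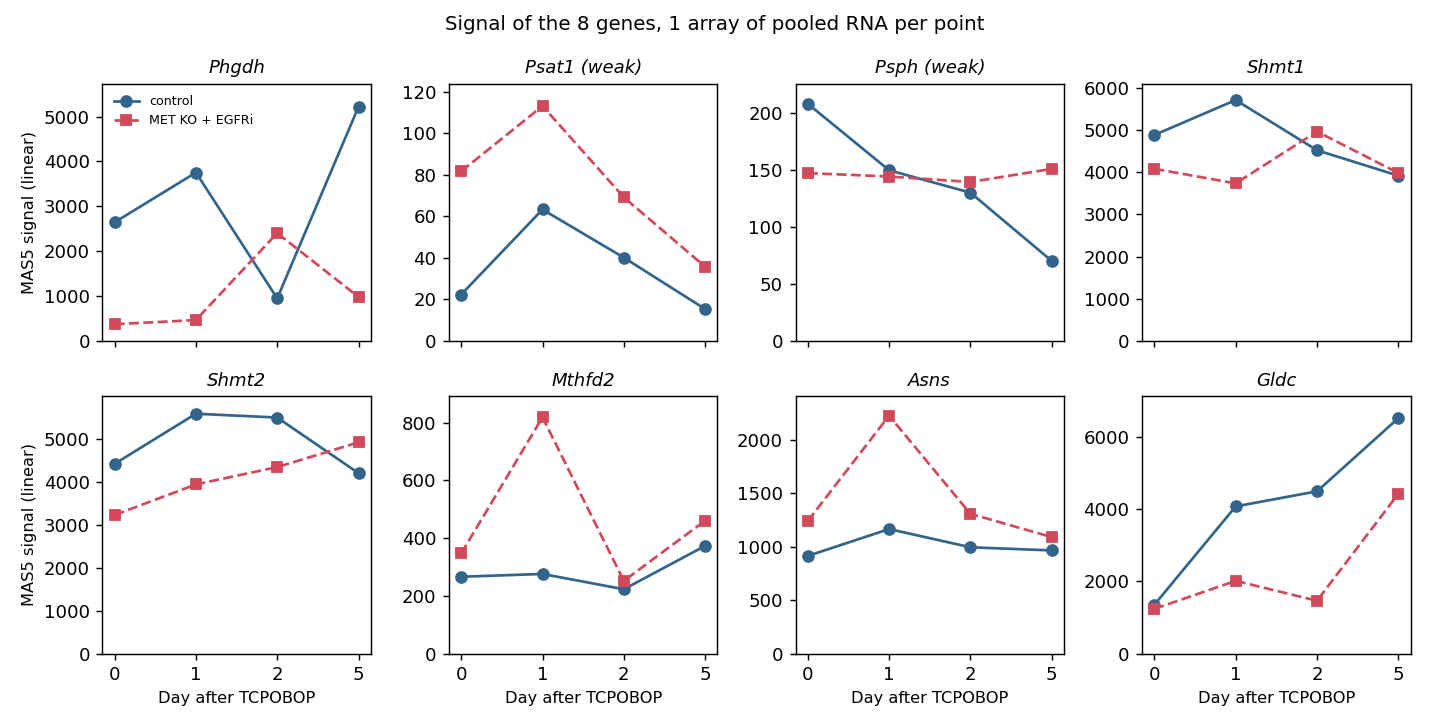
Signal of the strongest probe set of each gene (vertical axis, linear MAS5 signal, own scale in each panel) by day after TCPOBOP (horizontal axis, the 4 days evenly spaced and not to scale in time) in control (circles, solid line) and MET KO + EGFRi (squares, dashed line), each point being 1 array of pooled RNA. Phgdh crosses between the arms on day 2 (944 and 2400.1), Asns and Mthfd2 peak on day 1 under MET KO + EGFRi (2226 and 819), and Gldc reaches 6510 in control on day 5; panels marked weak did not pass the filter.

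On their strongest probe sets the hydroxymethyltransferases differed by less than 2-fold between the arms on each day, and some of their other probe sets differed by more. Shmt2, the mitochondrial form, had 4412, 5577.5, 5489 and 4195 in control and 3222, 3934, 4337 and 4912 under MET KO + EGFRi on its strongest probe set. It was lower under MET KO + EGFRi on days 0, 1 and 2 and higher on day 5, with a mean log2 difference of -0.26, and -0.43 without either array of day 5. A further probe set gave 2494 to 3104 in control and 1968 to 2477 under MET KO + EGFRi, and another had 491 to 624 and 352 to 486. On both of these the arms do not overlap, and the mean log2 differences were -0.31 and -0.32, with standard deviations of 0.09 and 0.11 over days. The fourth, weak Shmt2 probe set overlapped and had its lowest signal, 45, under MET KO + EGFRi on day 2.

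Shmt1, the cytosolic form, was read by 4 probe sets. The strongest had 4889, 5719, 4526 and 3922 in control and 4086, 3739, 4971 and 3985 under MET KO + EGFRi, with overlapping arms and a mean log2 difference of -0.18. It was -0.03 without either array of day 1 and -0.28 without either of day 2. Another had 2466.5 to 3546 in control and 1989 to 2352 under MET KO + EGFRi, without overlap. The remaining 2 probe sets had their highest signal of the 8 arrays under MET KO + EGFRi on day 2, with 2556 and 2055, where control had 1109 and 1144. All 4 probe sets were lower under MET KO + EGFRi on day 0, by log2 differences of -0.25 to -0.74, and on day 2 the differences ran from -0.10 to 1.16.

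Mthfd2, the mitochondrial dehydrogenase and cyclohydrolase that is low in most adult tissue and high in dividing cells, was higher under MET KO + EGFRi on 4 of 4 days. Its stronger probe set gave 266, 276, 223 and 373 in control and 347, 819, 252 and 461 under MET KO + EGFRi. The day 1 array of MET KO + EGFRi stood apart at 2.97 times control, and the other days differed by factors of 1.13 to 1.30. The mean log2 difference was 0.52 (standard deviation 0.57 over days) and 0.23 without either array of day 1. The weaker probe set gave its highest signal in the same array, 392 against 268 in control. On day 5 it was level, with 163.1 against 162.7 in control.

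Asns, which makes asparagine from aspartate and glutamine, followed a like course. Its strongest probe set gave 914, 1165, 995 and 965 in control and 1240.5, 2226, 1308 and 1090.1 under MET KO + EGFRi, higher in the latter on 4 of 4 days. The arms overlap, since the day 5 signal of MET KO + EGFRi is under the day 1 signal of control. The ratio of MET KO + EGFRi to control was 1.36, 1.91, 1.31 and 1.13, highest on day 1 and smallest on day 5. The mean log2 difference was 0.46 (standard deviation 0.31 over days). A weak second probe set, also of the _x_at kind, had 16.6, 8.2, 10.4 and 10.5 in control and 169.5, 405, 90.9 and 17.8 under MET KO + EGFRi. Day 1 was again the highest and day 5 the lowest under MET KO + EGFRi, and the arms do not overlap. Signals as low as those of control on this probe set allow no fold.

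Gldc, which releases the carbon unit of glycine, had higher signals after TCPOBOP than on day 0 in both arms. It had 1350.2, 4070, 4487 and 6510 in control, or 3.01, 3.32 and 4.82 times day 0 on days 1, 2 and 5. In MET KO + EGFRi it had 1235, 2011, 1460.2 and 4417, which is 1.63, 1.18 and 3.58 times day 0. The arms were nearly level on day 0 and MET KO + EGFRi was lower on 4 of 4 days, most on day 2 by a factor of 3.07. The mean log2 difference was -0.81 (standard deviation 0.62 over days). Gldc has 1 probe set, so no second reading is at hand.

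**Figure D2:**
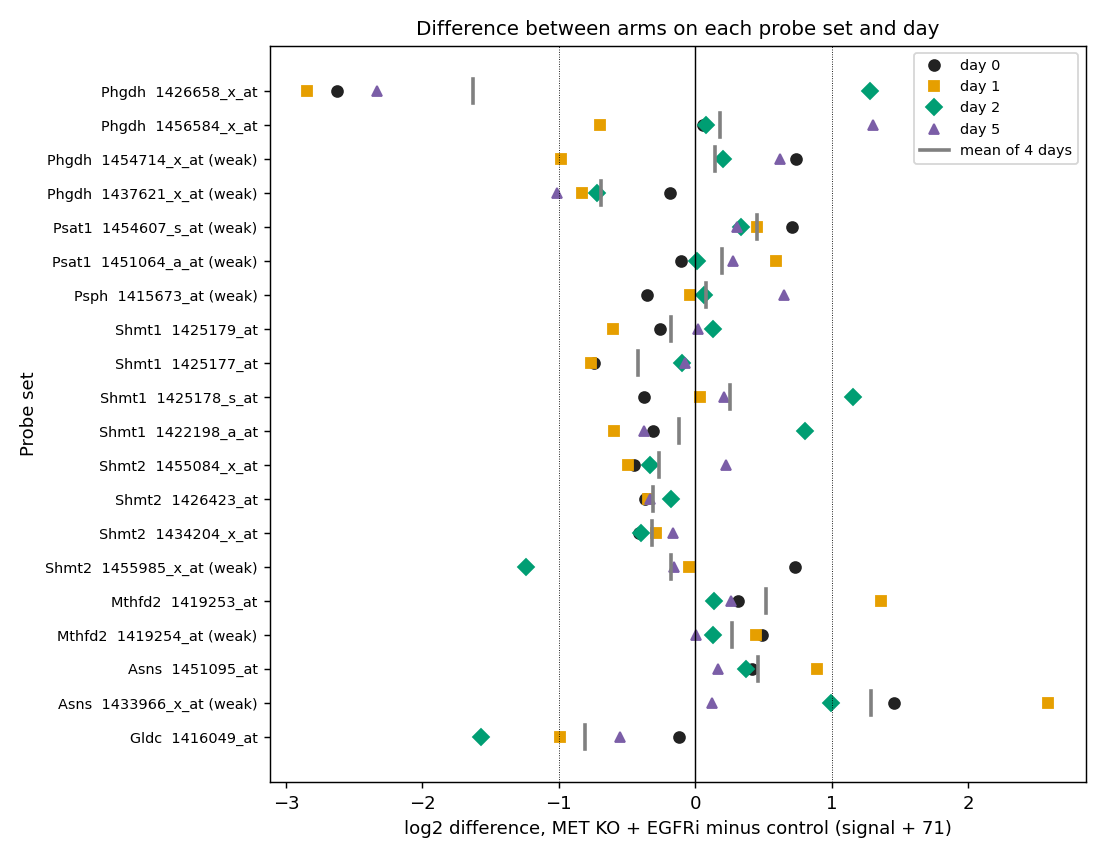
Log2 difference between the arms (horizontal axis, MET KO + EGFRi minus control, computed on the signal plus a pseudocount) for each of the 20 probe sets (vertical axis) on each of the 4 days (symbols), with the mean of the days as a grey bar and dotted lines at 2-fold. The Phgdh probe sets spread to both sides, with means from -1.63 to 0.18, whereas both Asns and both Mthfd2 probe sets lie to the right on 4 of 4 days. The weaker Mthfd2 probe set does so on day 5 by only 0.0025, which is level.

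Read by the strongest probe set of each gene, 3, 3, 6 and 6 of the 8 genes were higher under MET KO + EGFRi on days 0, 1, 2 and 5. Counts of 2-fold differences here and below use the signal plus 71. Among the 6 genes kept, Phgdh was the 1 at least 2-fold lower on each of days 0, 1 and 5, where 2.18, 2.63 and 2.16 percent of the 12112 genes kept were. Gldc on day 1 lay just short of it at a log2 difference of -0.99, and its plain signal ratio was 2.02. None of the 6 was at least 2-fold higher on its strongest probe set on days 0 and 5, against 2.64 and 2.25 percent. The next strongest Phgdh probe set, which also passed the filter, was so on day 5, by a log2 difference of 1.30. On day 2 Gldc was the 1 gene at least 2-fold lower, against 2.03 percent of all genes, and Phgdh the 1 gene at least 2-fold higher, against 2.88 percent. Mthfd2 was at least 2-fold higher on day 1, against 2.89 percent. The genes were chosen on these contrasts, so nothing is read from these shares. The arms overlapped for all 6 genes on their strongest probe set, and 6.25 percent of all genes kept had arms that did not, 3.5 percent with MET KO + EGFRi higher and 2.75 percent with it lower. Over single probe sets the arms did not overlap for 5 of 20, of which 3 were among the 12 kept. The share over all probe sets of the array was not computed, and the 6.25 percent counts genes by their strongest probe set. Nothing is therefore read from this count.

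Relative to day 0 of the same arm, 1 of the 6 genes kept was at least 2-fold higher in control on each of days 1, 2 and 5, which was Gldc, and Phgdh was at least 2-fold lower on day 2. Over all genes kept, 2.58, 2.58 and 2.82 percent were at least 2-fold higher in control on these days, and 2.27, 2.73 and 2.57 percent at least 2-fold lower. In MET KO + EGFRi, Mthfd2 was at least 2-fold higher on day 1, Phgdh on day 2, and Gldc and Phgdh on day 5, against 1.6, 2.13 and 2.82 percent of all genes. None was at least 2-fold lower there, against 1.76, 2.08 and 2.7 percent. These counts use the strongest probe set of each gene. On day 2 the other Phgdh probe sets had log2 changes of -0.27 to 0.063 in control. Under MET KO + EGFRi they had -0.58 to -0.25 on day 2 and -0.805 to 0.093 on day 5. None of them was therefore at least 2-fold higher there. The weaker Mthfd2 probe set rose by a log2 change of 0.475 on day 1 under MET KO + EGFRi, short of 2-fold. All changes within an arm share its day 0 array.

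For each gene the non-members most like it were found by Pearson's r of log2 values over the 8 arrays. This is a description of arrays that share arms and days. The closest were picked from very many genes over few arrays, so a high r can arise by chance. The r to be had by chance was not computed, and nothing is read from its size. Phgdh was matched on its strongest probe set, whose pattern its other probe sets do not show. The 3 closest to Phgdh were D130017N08Rik (0.97), Pxmp4 (0.97) and 4933407L21Rik (0.96). Their range was narrower than that of Phgdh, with 2274 to 3747 for Pxmp4. Those closest to Gldc were the protease Prss8 (0.99), Sdhaf4 (0.99) and the collagen Col15a1 (0.98). Prss8 had 52.5, 646, 592 and 1151 in control and 47.4, 116.5, 40.5 and 514 under MET KO + EGFRi. Asns was followed by the motor protein Kif5b (0.98), the ribosome factor Eif6 (0.95) and Pnmal2 (0.94), and Mthfd2 by Pwp2, AI429214 and Slc7a10 (each 0.94). Eif6 had 1647 to 1862 in control and 1956 to 3133 under MET KO + EGFRi, highest on day 1. Shmt2 was followed by Gmnn (0.97), Rbm28 (0.96) and Slc51a (0.96), of which Gmnn, an inhibitor of DNA licensing, had 361, 1034, 946 and 332 in control and 164, 327.5, 549.5 and 698 under MET KO + EGFRi. Shmt1 was followed by Prrc2b (0.96), Iqce (0.95) and Slc35a3 (0.95). The weak Psat1 was followed by Them7 (0.98), Egfr (0.96) and Dst (0.95), and the weak Psph by Zfp281 (0.98), Muc3 (0.96) and Eif4ebp2 (0.96).

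Genes around this pathway were read from lists and tested with limma across all 12112 genes, with arm and day as additive terms. The comparison of arms called 70 genes at a Benjamini-Hochberg adjusted p under 0.05, of which 50 (0.413 percent) were higher and 20 (0.165 percent) lower under MET KO + EGFRi. Without adjustment, 6.12 percent of genes were higher and 5.99 percent lower at p under 0.05. The error term of this fit comes from how the arm difference varied from day to day, so its p-values do not measure the spread between mice. The median log2 difference of all genes was 0.00. The same fit compared days 1, 2 and 5 with day 0 over both arms and called 51 genes (0.421 percent) higher and 8 (0.0661 percent) lower after TCPOBOP, and 6.21 and 3.87 percent at an unadjusted p under 0.05.

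No gene of the folate list, which leaves out the 8 genes, was called. Of 23 genes listed, 17 were kept, 0 were called between the arms by limma, also 0 at an unadjusted p under 0.05, and their median log2 difference was -0.08, and 0.05 after TCPOBOP. The 4 largest differences were those of Dmgdh (0.30), which turns dimethylglycine into sarcosine, and the folate receptor of macrophages Folr2 (0.28), and of Mthfs (-0.24) and the mitochondrial formyltransferase Mtfmt (-0.22). Among genes that use or break down serine and glycine, 13 of 17 were kept and 0 were called, with 0 higher and 2 lower at an unadjusted p under 0.05. Their median was -0.17 with 10 of 13 lower, and 0.20 after TCPOBOP. The lowest was Agxt, the peroxisomal enzyme that turns glyoxylate into glycine, at -0.49. Grhpr, which also clears glyoxylate, had -0.40, Agxt2 -0.37 and Gatm, the first enzyme of creatine synthesis, -0.36.

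In the methionine cycle 1 gene was called. Nnmt, which uses the methyl group of S-adenosylmethionine to methylate nicotinamide, had 2554, 2176, 1859 and 2028 in control and 12973, 14362, 4256 and 5157 under MET KO + EGFRi, with no overlap. It was higher under MET KO + EGFRi by a log2 difference of 1.87 (standard error 0.26, limma adjusted p = 0.0246), on 4 of 4 days. It stayed called in 6 of 7 alternative settings (adjusted p from 0.0137 to 0.070) but in 3 of 8 fits without 1 array. It was lost without either array of day 0, without either of day 1 and without MET KO + EGFRi of day 5, with adjusted p up to 0.117 and log2 differences of 1.60 to 2.10 over all 8 fits. Nnmt was the 1 gene called among 19 kept of 20 listed, with 6 higher and 3 lower at an unadjusted p under 0.05 and a list median of 0.16. Bhmt, which remakes methionine from betaine, had 24389, 7944, 8480 and 16844 in control and 30499, 38878, 19463 and 24475 under MET KO + EGFRi (log2 difference 1.08, adjusted p = 0.21). Control was highest on day 0, and MET KO + EGFRi on day 1. Mat1a, which makes S-adenosylmethionine, had 13419.5 to 19761 in control and 21988 to 37478 under MET KO + EGFRi (log2 difference 0.86, adjusted p = 0.128). Pemt, which spends it on phosphatidylcholine, had 6519 to 7429 in control and 2801 to 5089 under MET KO + EGFRi (log2 difference -0.92, adjusted p = 0.0552). Bhmt, Mat1a and Pemt did not pass the threshold; the arms of Mat1a and Pemt do not overlap.

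Known targets and sensors of the amino acid response, to which Asns belongs, held 1 call. Of 33 genes listed 24 were kept, with a median of 0.15, and 16 were higher and 8 lower. At an unadjusted p under 0.05, 6 were higher and 2 lower. Eif4ebp1, a brake on translation, was the 1 gene called. It had 1213 to 1359 in control and 2299 to 3219 under MET KO + EGFRi, a log2 difference of 0.94 (standard error 0.14, limma adjusted p = 0.0374), higher on 4 of 4 days. Its 3 probe sets disagree, with mean differences from -0.82 to 0.94, and with their mean the difference was 0.15 (adjusted p = 0.807). It stayed called in 4 of 7 alternative settings and in 0 of 8 fits without 1 array, with adjusted p from 0.0979 to 0.242 in the latter. Ddit4, an inhibitor of mTORC1, had 325, 203, 311 and 403 in control and 1660.3, 771, 476 and 559 under MET KO + EGFRi (log2 difference 1.17, adjusted p = 0.176), without overlap. Chac1, which degrades glutathione, had 986, 610.3, 548 and 765.5 and 2218, 1283.5, 1139 and 723 (0.75, adjusted p = 0.213), and Cebpb, a partner of ATF4, a difference of 0.74 (adjusted p = 0.127). For these 3 genes the arms were furthest apart on day 0, whereas Asns and the strongest probe set of Mthfd2 were furthest apart on day 1. Chac1 differed little between days 0, 1 and 2 (1.12, 0.99 and 0.97). Eif4ebp1 was furthest apart on day 1 (1.36), and the stronger probe set of the weak Psat1 on day 0 (0.71). On the weaker Mthfd2 probe set the differences were 0.49 on day 0 and 0.45 on day 1. Aminoacyl-tRNA synthetases, many of them ATF4 targets, had a median of 0.04 over 19 of 20 genes, with 0 called and with 0 higher and 1 lower at an unadjusted p under 0.05. The largest were Yars (-0.49), Aars (0.27), Sars (-0.24) and Hars (0.24).

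**Figure D3:**
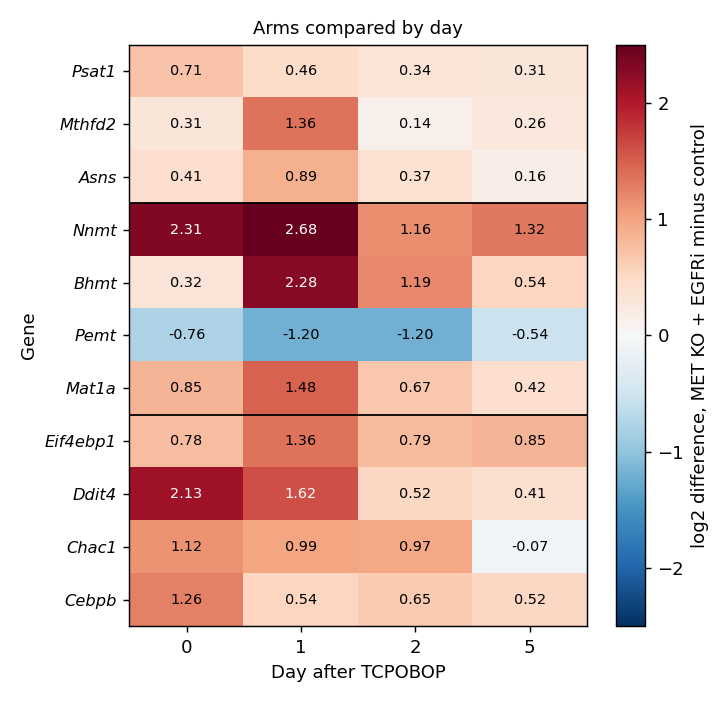
Log2 difference between the arms (colour and number, MET KO + EGFRi minus control) by day after TCPOBOP (horizontal axis) for Psat1, Mthfd2 and Asns (top), named methionine cycle genes (middle) and named amino acid response genes (bottom), each value from 1 array per arm. Mthfd2 and Asns are highest on day 1 (1.36 and 0.89), as are Nnmt, Bhmt, Mat1a and Eif4ebp1. The weak Psat1 (0.71), Ddit4, Chac1 and Cebpb are highest on day 0.

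Nucleotide synthesis is the main user of folate-bound carbon in dividing cells. Of 22 genes listed 21 were kept, with a median of 0.02. Adssl1, an adenylosuccinate synthase best known from muscle, was the 1 gene called in each comparison. It had 161, 1344, 959.6 and 1549 in control and 1560.3, 3118, 3934 and 5609 under MET KO + EGFRi. It was higher under MET KO + EGFRi by a log2 difference of 1.94 (standard error 0.24, limma adjusted p = 0.0169) and after TCPOBOP by 1.94 (limma adjusted p = 0.0347). The arm difference stayed called in 6 of 7 settings and in 4 of 8 fits without 1 array, being lost without any of the arrays of days 2 and 5 (adjusted p up to 0.0886). The difference after TCPOBOP stayed called in 3 of 7 settings and in 1 of 8 such fits, the one without MET KO + EGFRi of day 1 (adjusted p from 0.0425 to 0.219 over the 8). Umps (-0.68), Dhodh (0.55) and Adss (-0.33) did not pass the threshold. After TCPOBOP the list median was 0.10, with 6 genes higher and 2 lower at an unadjusted p under 0.05.

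Of 16 cell cycle genes listed 12 were kept. Their median was -0.35, with 12 of 12 below 0, and 0 were called, with 0 higher and 3 lower at an unadjusted p under 0.05. Cdc20, an activator of the anaphase-promoting complex, had 283, 1469.9, 2840.5 and 815.5 in control and 261, 349, 416 and 613 under MET KO + EGFRi. Its log2 difference was -1.23, ahead of the cyclin Ccnb2 (-0.93), the replication helicase subunit Mcm2 (-0.68) and the mitotic kinase Cdk1 (-0.59). On day 5 the list median was 0.30, and 8 of 12 genes were higher under MET KO + EGFRi. On their strongest probe sets, Phgdh and Gldc were lower under MET KO + EGFRi on that day. The other 6 of the 8 genes were higher, Shmt1 by a log2 difference of only 0.02. Other probe sets differ from this: the remaining Shmt2 sets were lower (-0.33, -0.17 and -0.15) and the remaining Phgdh sets went both ways. The weaker Mthfd2 set was level, with 162.7 in control and 163.1 under MET KO + EGFRi. After TCPOBOP the list median was 0.78, against -0.02 for all genes, with 12 of 12 genes above 0, 0 called by limma, and 7 higher and 0 lower at an unadjusted p under 0.05. Genes of glycolysis and 3-phosphoglycerate supply had a median of -0.02 over 9 of 14 genes, with 0 called and with 1 higher and 1 lower at an unadjusted p under 0.05. The largest were Pklr (-0.78), which draws from 3-phosphoglycerate toward pyruvate, and Pck1 (0.60), which feeds it from the other side, then G6pc (-0.41) and Pgk1 (-0.26).

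**Figure D4:**
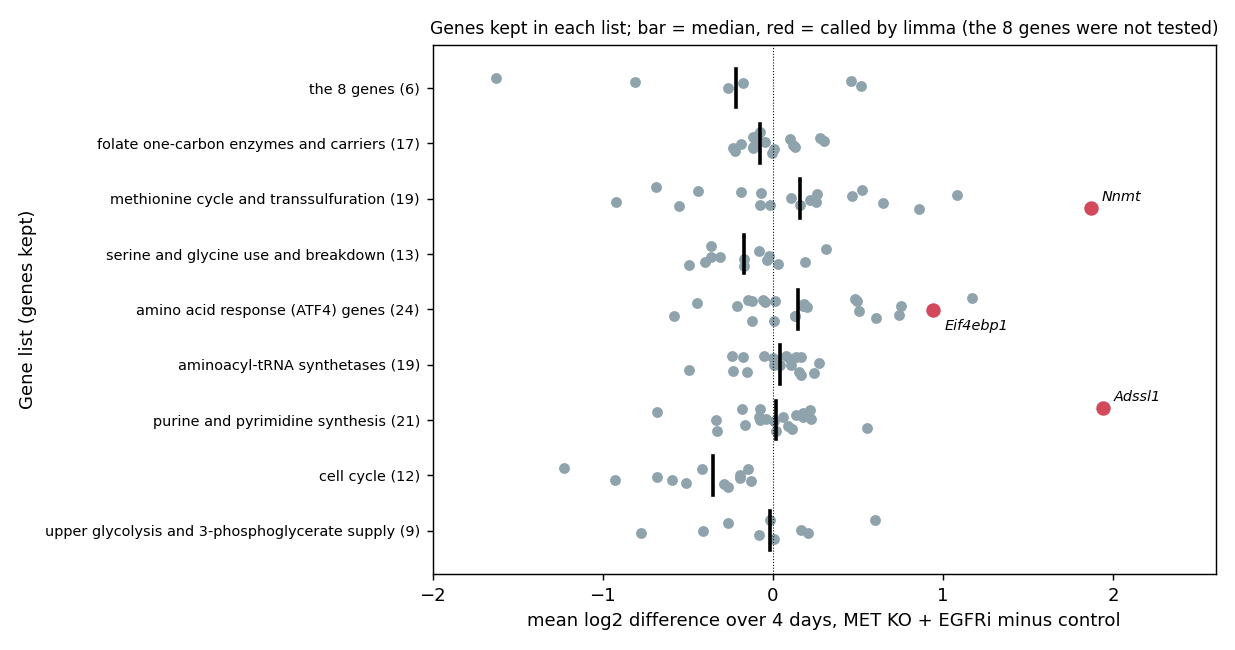
Mean log2 difference over 4 days (horizontal axis, MET KO + EGFRi minus control) of each gene kept in each list (vertical axis, with the number kept), with the list median as a black bar and genes called by limma in red. Medians run from -0.35 for the cell cycle to 0.16 for the methionine cycle, and 3 genes are called, Nnmt, Eif4ebp1 and Adssl1; the 8 genes described here were not tested.

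The livers were read whole, so that fewer cells of a type and less RNA per cell cannot be told apart. Kupffer cell and macrophage markers had a summed signal of 16075 to 35756 in control and 28866 to 51289 under MET KO + EGFRi, with 10 of 10 genes higher in the mean. Neutrophil and monocyte markers had sums of 3096 to 3291 and 5879 to 6361, with 5 of 6 genes kept higher, on 7 of 10 listed with a probe set. Hepatocyte markers overlapped, with 218316 to 381952 and 243599 to 372041. Stellate cell markers had 8432 to 9963 and 11608 to 14343, and of 6 genes kept Dcn was the 1 higher in the mean. Pancreas markers, from a tissue rich in Asns, had sums of 1877 to 3284 and 1917 to 2997, and adipose markers 397 to 591 and 386 to 589. Lymphocyte (4384 to 4742 and 4103 to 4854), endothelial (6871 to 9910.4 and 7931 to 11259), cholangiocyte (933 to 2041 and 976 to 1616) and erythroid markers (749 to 2103 and 1052 to 1244) also overlapped between the arms. In the limma comparison of arms, 1 of 10 Kupffer cell and macrophage genes kept was called higher under MET KO + EGFRi. So were 2 of 6 neutrophil and monocyte genes and 1 of 6 stellate cell genes, against 0.413 percent of all genes. In the other marker lists 0 were called higher, and in all of them 0 were called lower. The part of these cells in the signals of the 8 genes was not tested.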

How the data were processed

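The deposited values are probe set intensities on a linear scale from MAS5, which the submitters' processing notes name as the authors' method. The version, masking and detection calls are not given in the sources used here. Each array took 6 µg of total RNA from pooled livers, per the labels' protocols. Of 45101 probe sets, 64 control sets were left out, 34945 had 1 gene in the platform's table, 932 had several and 9160 were not listed there. Symbols were updated through gene identifiers. Logarithms (log2) were taken of the signal plus 71, the lower quartile of all deposited signals, which understates the folds of weak genes. Each gene of a list is represented by the strongest of its probe sets. The 12112 genes with a mean log2 value of at least 8.24 were fitted with limma (3.58.1, R 4.3.3) with arm and day as additive terms, 3 residual degrees of freedom and variances moderated with a trend on mean expression. Within 1 day, or against day 0 of an arm, genes past 2-fold were counted with no test.

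Tested on simulated data of 12112 genes with 200 changed, the fit found 10.8, 51.6, 88 and 95 percent of the 1.5-, 2-, 4- and 8-fold changes between arms (4.51 percent of calls were false). Between days it found 2.2, 33.6, 81.4 and 90.8 percent, and 4.24 percent of calls were false. The simulated data followed the model of the fit, with independent normal noise at each gene's residual spread. Each change between arms was the same on all days, and each change between days the same in both arms. These shares therefore do not cover arm differences that vary from day to day, or the spread between mice.

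The members, lists and motifs were chosen with earlier results of these data known. By rule, all 8 genes were described on each probe set. Of each pathway list, called genes (up to 6) and the 4 with the largest mean difference were named, and of each marker list up to 3 with the highest mean. The 3 genes most like each member were named by Pearson's r. Alternatives were other pseudocounts, filters, probe set summaries and variance models, quantile normalization, and leaving out each array. RefSeq promoters had 300 bases. Protein sequences were not used here.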

Additional observations from a re-analysis of the deposited data

Results flagged for a closer look

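Among the 8 genes, those named from the pathway lists and those named as most like the 8, 4 had changes from day 0 of opposite sign in the arms on each later day, from 1 array per point, and the difference between the arms was not tested. Folr2 had log2 changes on days 1, 2 and 5 of -0.76, -0.16 and -0.046 in control and of 0.0031, 0.26 and 0.26 under MET KO + EGFRi. Hars had 0.40, 0.31 and 0.24 in control and -0.53, -0.84 and -0.52 under MET KO + EGFRi. Pklr had -0.84, -0.87 and -0.77 in control and 0.13, 0.31 and 0.73 under MET KO + EGFRi. Zfp281, which resembled the weak Psph over the arrays, had -0.33, -0.32 and -0.79 in control and 0.081, 0.026 and 0.048 under MET KO + EGFRi. None of the 8 genes of serine synthesis and one-carbon transfer did so on its strongest probe set. The changes of an arm share its day 0 array, so the later days are not separate readings. Hars on day 0 was lowest in control (505) and highest under MET KO + EGFRi (1041), and Pklr was highest (6799) and lowest (2063). Folr2 on day 1 and Zfp281 on all later days were near level under MET KO + EGFRi. The share of all genes with such signs is not given here, so nothing is read from the count.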

How the results depend on the processing

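No paired analysis was possible because replicate numbers pair nothing when each arm and day has 1 array; the arms are already matched by day in the fit. The comparison of arms called 70 genes, and 28 without a filter, from 20 to 57 without 1 array and from 50 to 90 under the other settings. The comparison of days called 59, and 31 with the mean of probe sets, 26 without a filter, 34 without a variance trend and from 4 to 49 without 1 array, the lowest without MET KO + EGFRi of day 0. Leaving out either array of a day gives the same difference of arms, as its partner then informs only the day. For the arms on days 0, 1, 2 and 5, the 584, 669, 595 and 534 genes at least 2-fold apart became 322, 380, 300 and 251 with the median as pseudocount, and day 5 gave 355 with the mean of probe sets. From day 0 in control, 587, 644 and 653 genes on days 1, 2 and 5 became 319, 337 and 358 with the median as pseudocount, and with the mean of probe sets 418 and 432 on days 2 and 5. In MET KO + EGFRi 407, 510 and 669 became 195, 288 and 382 with the median as pseudocount, and day 1 gave 264 with the mean of probe sets. Of 96 alternative values of the members' mean differences, 3 moved by more than the spread over days (Psat1 with both other pseudocounts, and Asns with the mean of probe sets at 0.88) and 2 changed sign (Psph). That spread is each gene's own, so a gene that varies widely between days can shift far uncounted. For Phgdh the spread was 1.95, and neither -0.50 with the mean of probe sets nor -2.60 without either array of day 2 was counted. Fits without 1 array enter in equal pairs, and genes with 1 probe set cannot change with the mean of probe sets. The count is therefore no measure of stability. Of 32 alternative medians of the pathway lists, 1 moved and 0 changed sign. Signals near the pseudocount, as of Psat1 and Psph, limit what these arrays can show.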
